A study of Mus musculus with 10 samples.

Results

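Intermediate progenitors of the mouse cortex were taken from a single-cell RNA sequencing survey of the E16.5 cortex, and they were recognized by the T-box transcription factor Eomes. A cell was chosen by its own UMIs (unique molecular identifiers, each standing for 1 captured RNA molecule). It had at least 1000 UMIs, at most 10% mitochondrial UMIs, at least 2 UMIs of Eomes and at least 1 UMI of Neurog2, Btbd17 or Mfap4. It also had at most 1 UMI of the interneuron genes Dlx1, Dlx2 and Dlx5 together, and fewer than 4 of the 7 mitotic genes Top2a, Ube2c, Cenpf, Cdc20, Ccnb1, Cenpe and Tpx2. The rule selected 3281 of 65779 kept cells (4.99%), from 268 to 451 in each of the 10 embryos. These 14 genes chose the cells, and their levels are given below only as a description.

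The embryos carried WT Gatad2b, the stop allele on 1 chromosome (Gatad2b stop/+, Het) or on both (Gatad2b stop/stop, KO). The stop allele is a trap cassette in an intron near the start of the coding region and is present in every cell of the embryo, so the cortex is not the only organ affected, and KO pups die around birth. Cortices of 3 WT, 4 Het and 3 KO embryos at E16.5 gave 1 library each, with 10X Genomics 3′ chemistry, on a C57BL/6N-A tm1Brd background. The study asked how the dose of Gatad2b, a subunit of the NuRD chromatin complex, shapes the developing cortex.

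In the developing cortex, radial glia divide along the ventricle and give rise to neurons directly or by way of intermediate progenitors. Intermediate progenitors leave the ventricular surface, settle in the subventricular zone, switch on Eomes (also called Tbr2) and usually divide to give neurons. Neurog2 is the proneural factor that starts neuronal differentiation, Insm1 drives delamination from the ventricular surface, and Eomes itself promotes the intermediate progenitor program. Notch ligands on these cells signal back to radial glia and help to keep them in the progenitor state.

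The library names carry 1 of 2 prefixes. Prefix A belongs to WT replicates 1 to 3 and Het replicate 4. Prefix B belongs to KO replicates 1 to 3 and the remaining Het embryos. WT and KO therefore differ in prefix as well as in genotype, and for KO vs WT the 2 cannot be told apart. KO vs Het replicates 1 to 3, all of prefix B, is given as a separate comparison that the prefix does not touch. Sex also moved with genotype, since Xist, the RNA of the inactive X chromosome, exceeded 1000 CPM in the members of 1 of 3 WT, 3 of 4 Het and 3 of 3 KO embryos. The members had a median of 15464 UMIs and 4252 genes, against 13874 UMIs over all kept cells. Their summed UMIs ranged from 4008176 to 8008158 per embryo. Barcodes shared between libraries were rare, 3 of 3278 distinct barcodes among the members.

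The members carried a median of 12 UMIs of Eomes, with a 90th percentile of 30 and a maximum of 131. Neurog2 was found in 83.2% of them, Mfap4 in 84.2% and Btbd17 in 67.9%, and all 3 were found in 51.5%. Just inside the threshold, 305 members had exactly 2 UMIs of Eomes, and 63.0% of them had Neurog2, 63.3% Mfap4 and 40.3% Btbd17. Just outside it, 663 cells that met every other part of the rule had exactly 1 UMI of Eomes, and 60.3%, 49.6% and 37.1% of them had the same genes. Microglia, which should lack Eomes, had a UMI of it in 1.58% of 253 cells (exact 95% binomial interval 0.432% to 4.00%), at a median of 4705 UMIs, against 9.31% of all kept cells. After thinning to 5000 UMIs the shares were 1.63% of 123 microglia and 7.58% of 57247 cells.

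Levels of genes that the rule did not use were compared with those in other cell types. Over the 10 embryos, Neurod1 averaged 494 CPM in the members, 33.5 in radial glia (463 cells with at least 2 UMIs of Slc1a3, any of Sox2 or Pax6 and any of Hes1 or Hes5, without Eomes) and 250.4 in migrating upper-layer neurons (2804 cells with at least 3 UMIs of Unc5d, any of Neurod6 and none of Fezf2, without Eomes). Sstr2, a somatostatin receptor, averaged 185, 8.68 and 92.4 CPM in the same order, and Mfng, which glycosylates Notch, averaged 117, 7.31 and 25.2. Each of these 3 genes was higher in the members than in both other cell types in 10 of 10 embryos. The radial glia gene Fabp7 averaged 513 CPM in the members and 11847 in radial glia. Vim was intermediate, at 578 CPM in the members, 2263 in radial glia and 41.3 in upper-layer neurons.

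RNA of other cell types was found in the members, and the summed levels differed between lists and embryos. The summed level of 6 oligodendrocyte precursor genes in the members lay between 14.9 and 24.4 CPM in WT, between 2.81 and 5.72 in Het and between 1.77 and 4.25 in KO, and Sox10, a defining gene, was at 0 in 4 of 4 Het and 2 of 3 KO embryos. The sum of 6 Cajal-Retzius genes lay between 138 and 295 CPM in WT, between 152 and 242 in Het and between 60.6 and 119 in KO. The sum of 12 endothelial and mural genes lay between 6.49 and 8.48 CPM in WT, between 4.85 and 14.7 in Het and between 2.40 and 148 in KO, where the highest value was KO replicate 3, with Cldn5 at 71.7 CPM. The sum of 8 choroid plexus genes lay between 7.73 and 51.2 CPM in WT, between 3.45 and 8.26 in Het and between 2.90 and 4.50 in KO, and Ttr was at 0 in every Het and KO embryo. The sum of 7 hemoglobin and other erythroid genes lay between 92.8 and 1379 CPM in WT, between 110 and 6864 in Het and between 59.2 and 3420 in KO, so that the groups overlapped. In some embryos it exceeded the sum of the 4 intermediate progenitor markers, which lay between 1465 and 1736 CPM over all embryos. The sum of 11 interneuron genes lay between 80.8 and 100.5 CPM in WT, between 63.6 and 86.1 in Het and between 84.9 and 86.6 in KO. That of 10 microglia genes lay between 1.47 and 7.08 CPM in WT, between 1.28 and 15.8 in Het and between 0.369 and 3.37 in KO, and that of 7 deep-layer neuron genes lay between 211 and 258 CPM in WT, between 185 and 219.5 in Het and between 195 and 215 in KO. The part of these RNAs in the results below was not tested.

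Intermediate progenitors were a larger share of the cells in every mutant embryo than in any WT embryo. They were 3.32%, 3.74% and 3.43% of the kept cells in the WT embryos, 6.25%, 4.47%, 4.92% and 5.43% in Het and 6.60%, 5.67% and 7.30% in KO. No Het or KO embryo reached down to the WT range. On average, WT averaged 3.50% ± 0.219, Het 5.27% ± 0.763 and KO 6.53% ± 0.817 (SD over n = 3, 4 and 3 embryos), which puts the mutants at 1.51 and 1.86 times the WT share. The two-sided exact permutation test gave p = 0.0571 for Het vs WT, where the smallest possible p is 0.0286, and p = 0.1 for KO vs WT, the smallest that 3 embryos against 3 allow. After adjustment over 7 measures these were 0.2 and 0.175. Over 0, 1 and 2 mutant alleles the share rose with Pearson's r = 0.897 (exact permutation p = 0.000952, adjusted over 7 measures 0.00333) and Spearman's rho = 0.899 (exact permutation p = 0.00143). When 2 of the 6 embryos that are WT or KO were omitted, r ranged from 0.820 to 0.931. The permutations for this trend ignored the prefix. All WT embryos are of prefix A and all KO embryos of prefix B, so the part of the prefix in the trend cannot be told apart.

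Within prefix B, the mean of KO was 1.31 points above that of Het, and the groups overlapped (exact permutation p = 0.2). Within prefix A, Het replicate 4 had 5.43% and the WT embryos 3.32% to 3.74%. Thinning cut each cell with at least 5000 UMIs to 5000 and left out the other cells, so that 57247 of 65779 kept cells remained. Among these the shares were 2.72%, 3.07% and 3.29% in WT, 5.46%, 3.80%, 3.89% and 4.50% in Het and 5.43%, 4.62% and 6.54% in KO. With cells of the pallial lineage as the denominator WT averaged 4.47% ± 0.374, Het 7.14% ± 0.640 and KO 9.002% ± 0.943 (SD over n = 3, 4 and 3 embryos), KO and Het of prefix B no longer overlapped, and Het vs WT reached the smallest possible exact permutation p of 0.0286. The ratio of KO to WT grew with the Eomes threshold. It was 1.73 with at least 1 UMI of Eomes and 1.93 with at least 3, and KO and WT did not overlap in either. The median UMIs of Eomes per member were 9 to 10 over the WT embryos, 11 to 13 over Het and 13 to 14 over KO. The part of the Eomes level per cell in the share was not tested. The only WT embryo with Xist had the highest WT share (3.74%), and Het replicate 2, the only mutant without it, had the lowest share of the mutants (4.47%). The part of sex in the share was not tested.

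**Figure D1:**
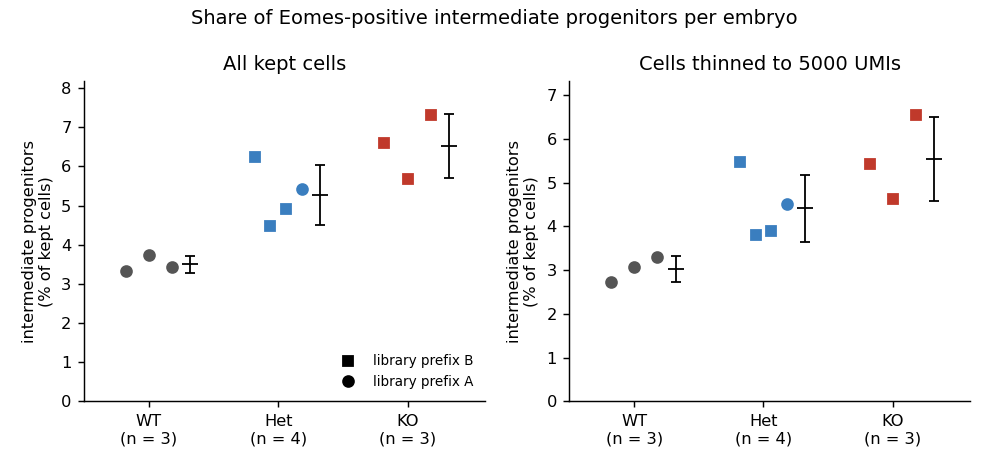
Share of Eomes-positive intermediate progenitors among kept cells (percent, y axis) per embryo, over all cells (left) and over cells with at least 5000 UMIs, each thinned to 5000 (right). Points are embryos, circles are prefix A and squares prefix B, and bars are the mean ± SD of each genotype. All 4 Het and all 3 KO embryos lie above the 3 WT embryos, which sit between 3.32% and 3.74% on the left.

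For the share of radial glia on thinned cells, WT averaged 0.806% ± 0.175, Het 0.764% ± 0.166 and KO 0.703% ± 0.212 (SD over n = 3, 4 and 3 embryos), and the embryos overlapped (exact permutation p = 0.6 for KO vs WT). In intermediate progenitors for every 100 radial glia, WT averaged 384 ± 60.6, Het 582 ± 29.2 and KO 814 ± 149.8 (SD over n = 3, 4 and 3 embryos). The genotypes did not overlap in this ratio, also not KO and Het of prefix B, but on unthinned cells the last 2 did (a difference of 104.9, against 239 thinned). Het vs WT had an exact permutation p of 0.0286 (0.2 after adjustment over 7 measures), and KO vs WT one of 0.1 (0.175 adjusted). The radial glia rested on only 27 to 60 cells per embryo before thinning.

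The share of members with several genes of DNA replication was lower in every KO embryo than in any WT embryo. A member was counted as replicating when at least 4 of 35 replication genes had a UMI after thinning. These were 49.7%, 44.8% and 43.6% of the members in WT, 40.8%, 44.6%, 42.5% and 36.8% in Het and 32.7%, 37.3% and 35.1% in KO. The KO embryos did not overlap WT (difference -11.0 percentage points, exact permutation p = 0.1) or Het of prefix B (-7.61 points, exact permutation p = 0.1). Het and WT overlapped (exact permutation p = 0.114). Without thinning, WT averaged 91.4% ± 0.729, Het 93.2% ± 2.16 and KO 91.8% ± 3.42 (SD over n = 3, 4 and 3 embryos), with overlapping embryos.

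Dividing cells were counted as well. Of all cells meeting the rule with or without mitotic genes, the thinned share with at least 4 mitotic genes was 10.1%, 14.9% and 8.52% in WT, 11.1%, 6.17%, 9.50% and 8.90% in Het and 6.83%, 6.06% and 4.56% in KO. KO and WT did not overlap, and KO overlapped Het of prefix B. The mitotic genes are part of the selection rule, so these shares are a description, with no test. Without thinning, WT averaged 16.98% ± 1.81, Het 15.2% ± 3.24 and KO 12.4% ± 1.93 (SD over n = 3, 4 and 3 embryos), again without overlap of KO and WT. Counting the mitotic cells as members left the share of intermediate progenitors in the same order, as WT averaged 4.22% ± 0.315, Het 6.23% ± 1.02 and KO 7.44% ± 0.822 (SD over n = 3, 4 and 3 embryos).

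The split of the members between a radial glia side and a neuron side did not separate the genotypes on thinned cells. For members with Slc1a3 and Hes1 or Hes5, WT averaged 4.41% ± 0.504, Het 4.79% ± 2.47 and KO 4.95% ± 1.13 (SD over n = 3, 4 and 3 embryos) (exact permutation p = 0.6 for KO vs WT). Thinned members numbered 179 (WT replicate 1) to 356 (KO replicate 3) per embryo. The radial glia side therefore rested on few cells in each embryo, and its overlap does not show that the genotypes were equal. On unthinned cells WT averaged 7.08% ± 0.758, Het 12.4% ± 3.13 and KO 16.49% ± 2.097 (SD over n = 3, 4 and 3 embryos), without overlap between WT and either mutant. The median UMIs per member ranged from 13206.5 to 15047 over the WT embryos. Over the Het embryos they ranged from 14795 to 15941, and over the KO embryos from 15878 to 16546. Het replicate 2, with the lowest of the Het medians, had the highest unthinned Het share (17.1%), and the part of depth in this difference was not tested. For members with both Neurod2 and Neurod6, transcription factors of young cortical neurons, WT averaged 57.5% ± 2.95, Het 56.4% ± 8.45 and KO 60.4% ± 3.92 (SD over n = 3, 4 and 3 embryos) (exact permutation p = 0.3 for KO vs WT).

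**Figure D2:**
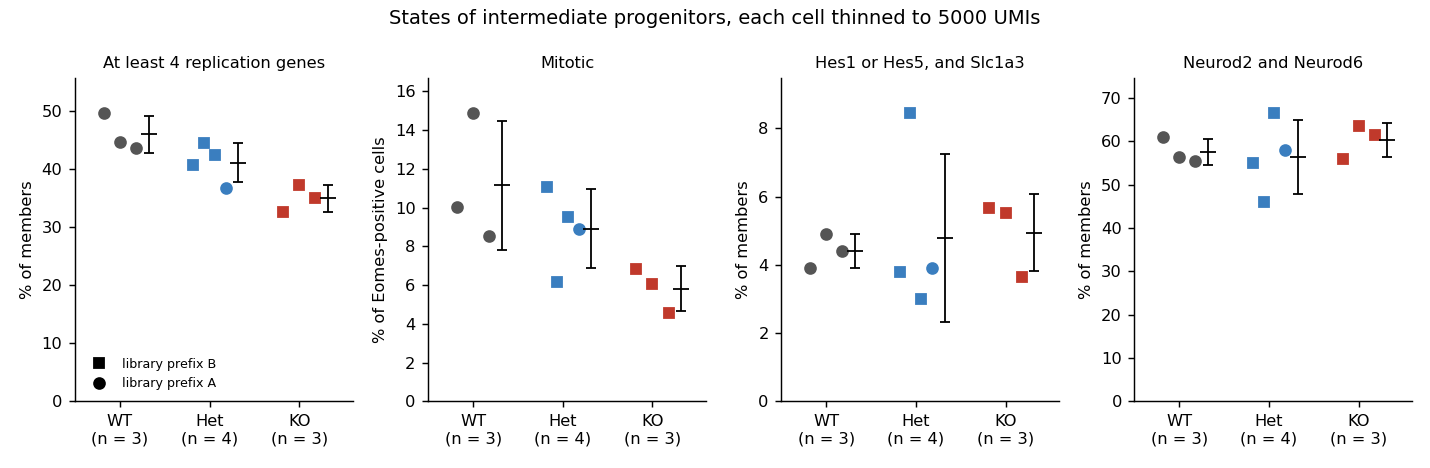
States of the cells per embryo after thinning to 5000 UMIs, in percent of the members or of all Eomes-positive cells of the rule (y axes). Points are embryos, circles are prefix A and squares prefix B, and bars are the mean ± SD. The replicating share falls from a WT mean of 46.1% to a KO mean of 35.0% without overlap, and the shares with radial glia or neuronal genes overlap.

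For single genes the UMIs of the members were summed in each embryo and tested with edgeR's quasi-likelihood test over 12041 genes outside the rule. Genes count as called when the Benjamini-Hochberg adjusted p was below 0.05 and the log2 fold change beyond 0.25 in size. Levels are CPM, the summed UMIs of the members scaled to a common total per embryo. KO vs WT called 2054 genes (17.1%), of which 988 were higher (8.21%) and 1066 lower (8.85%). Het vs WT called 30 (0.249%), 15 in each direction (0.125%), while 1833 genes had an unadjusted p under 0.05 and DESeq2 called 101. KO vs Het within prefix B called 350 of 11869 (2.95%), 184 higher (1.55%) and 166 lower (1.4%). With the prefix as a covariate, a fit that rests on Het replicate 4, KO vs WT called 204 genes (1.69%) and Het vs WT none (662 at an unadjusted p under 0.05).

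The targeted gene was checked first. Gatad2b (ENSMUSG00000042390, chr3:90293178-90363407, GRCm38) had 148, 131 and 159.9 CPM in WT, 94.6, 99.2, 116 and 112 in Het and 63.6, 55.5 and 71.9 in KO. The 3 genotypes did not overlap. It fell by 1.19 ± 0.10 (SE) on the log2 scale in KO vs WT (adjusted p = 6.41e-06), by 0.47 ± 0.09 in Het vs WT (adjusted p = 0.0494), and by 0.69 ± 0.09 in KO vs Het of prefix B (adjusted p = 0.00174). The Het vs WT call was lost in 9 of 10 fits that left out 1 embryo and held in 3 of 10 other alternatives. The trap leaves the exons in place, so UMIs of the gene's end need not vanish in KO.

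Of 15 measured NuRD genes, 4 were higher and 1, Gatad2b itself, was lower in KO vs WT (33.3%, against 17.1% of all genes). The 33.3% counts Gatad2b, the gene that the allele traps, so that call follows from the genotype and is no result about the list. Without KO replicate 1, 2 were higher, on thinned cells 1 was higher, and with the prefix as covariate none was. The fit on thinned cells called 7.85% of all genes in KO vs WT. Gatad2b stayed lower in each of these fits. Gatad2a, the paralog that takes the same place in the complex, had 55.9, 48.0 and 58.5 CPM in WT, 52.7, 58.7, 53.2 and 61.3 in Het and 78.6, 63.4 and 71.9 in KO. It was higher in KO than in WT (log2 fold change 0.41 ± 0.10 (SE), adjusted p = 0.00932) and than in Het of prefix B (log2 fold change 0.39 ± 0.09 (SE), adjusted p = 0.0264), and the KO embryos did not overlap either group. Without WT replicate 2 or KO replicate 1 the KO vs WT change was no longer called, and on thinned cells neither change was. Cdk2ap1, a small NuRD subunit, had 210.5, 216 and 205 CPM in WT, 335, 349.8, 337 and 198 in Het and 359, 388 and 334 in KO. Its high values were the 6 embryos of prefix B, and Het replicate 4 sat below the WT embryos, so that the KO vs WT call (log2 fold change 0.77 ± 0.15 (SE), adjusted p = 0.00278) moved with the prefix. With the prefix as covariate its log2 fold change was -0.01. Mta1 had 63.0, 62.7 and 53.3 CPM in WT and 75.3, 84.2 and 72.4 in KO (log2 fold change 0.36 ± 0.09 (SE), adjusted p = 0.0109), and was not called without WT replicate 3 or on thinned cells.

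Among called genes with at least 20 CPM in 1 group and no overlap, the largest increase in KO members was that of Ucp2, which rose with each mutant allele. Ucp2 (ENSMUSG00000033685, chr7:100493337-100502020), an uncoupling protein of the inner mitochondrial membrane, had 4.25, 6.36 and 4.69 CPM in WT, 11.7, 13.3, 12.2 and 11.9 in Het and 29.6, 38.0 and 35.1 in KO. The genotypes formed 3 separate ranges, and KO was 6.61 times WT (log2 fold change 2.72 ± 0.16 (SE), adjusted p = 1.97e-07). It was also called in Het vs WT (log2 fold change 1.25 ± 0.18 (SE), adjusted p = 0.0121) and within prefix B (log2 fold change 1.46 ± 0.12 (SE), adjusted p = 7.02e-05). Chchd10 (ENSMUSG00000049422, chr10:75933130-75937747), a protein of the mitochondrial intermembrane space, had 3.57, 5.54 and 2.22 CPM in WT, 6.83, 8.14, 8.74 and 5.26 in Het and 21.7, 26.9 and 19.7 in KO. All KO embryos lay above the others (KO vs WT log2 fold change 2.54 ± 0.25 (SE), adjusted p = 1.53e-05, and KO vs Het of prefix B log2 fold change 1.52 ± 0.16 (SE), adjusted p = 2.50e-04). Tuba4a, an alpha-tubulin, had 7.15, 2.87 and 4.93 CPM in WT, 7.87, 7.93, 12.2 and 7.95 in Het and 24.0, 24.7 and 26.0 in KO (log2 fold change 2.33 ± 0.23 (SE), adjusted p = 1.53e-05), and KO vs Het of prefix B gave log2 fold change 1.42 ± 0.15 (SE), adjusted p = 2.67e-04.

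Lpar1 (ENSMUSG00000038668, chr4:58435255-58553898), a receptor for lysophosphatidic acid, had 5.14, 7.997 and 4.19 CPM in WT, 20.6, 12.4, 12.9 and 11.3 in Het and 29.9, 30.7 and 27.6 in KO. Its genotypes did not overlap (log2 fold change 2.32 ± 0.23 (SE), adjusted p = 1.96e-05 in KO vs WT). Sox3, a SoxB1 factor of neural progenitors that lies on the X chromosome, had 6.26, 6.36 and 5.92 CPM in WT, 11.9, 15.6, 9.50 and 10.1 in Het and 22.3, 23.0 and 20.2 in KO (log2 fold change 1.81 ± 0.18 (SE), adjusted p = 1.96e-05). The only WT embryo with Xist had 6.36 CPM of Sox3, and Het replicate 2, the only mutant without Xist, had 15.6. St18, a zinc finger factor, had 7.82, 10.5 and 16.53 CPM in WT, 13.8, 16.1, 15.8 and 23.8 in Het and 39.1, 35.4 and 36.3 in KO (log2 fold change 1.69 ± 0.21 (SE), adjusted p = 1.07e-04), and KO vs Het of prefix B gave log2 fold change 1.29 ± 0.10 (SE), adjusted p = 7.02e-05. Sypl2 had 9.83, 7.997 and 5.67 CPM in WT, 13.2, 11.99, 11.8 and 13.5 in Het and 24.7, 26.7 and 24.97 in KO (log2 fold change 1.69 ± 0.15 (SE), adjusted p = 8.72e-06). Sparc, a secreted matrix protein, was highest in KO replicate 3 (8.71, 12.9 and 16.3 CPM in WT, 21.98, 24.6, 15.8 and 22.1 in Het and 32.3, 33.7 and 77.3 in KO), the library in which endothelial RNA was also highest, and it was still called in KO vs WT without that embryo.

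Klf4 and Fos, both immediate early genes, completed the 10 largest increases and had another pattern. Fos (ENSMUSG00000021250, chr12:85473890-85477273) had 50.3, 44.3 and 91.8 CPM in WT, 191, 246, 172 and 46.7 in Het and 186, 198 and 211 in KO, and Klf4 had 5.59, 3.28 and 3.95 CPM in WT, 21.7, 21.6, 17.3 and 3.08 in Het and 20.3, 17.5 and 28.6 in KO. In both, Het replicate 4 sat with WT while the other Het embryos sat with KO. KO vs Het of prefix B gave log2 fold change -0.04 ± 0.10 (SE), adjusted p = 0.922 for Fos and log2 fold change 0.15 ± 0.16 (SE), adjusted p = 0.745 for Klf4, and Fos was not called in KO vs WT without WT replicate 2. Both values of KO vs WT changed sign with the prefix as covariate, to -0.43 and -0.32.

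**Figure D3:**
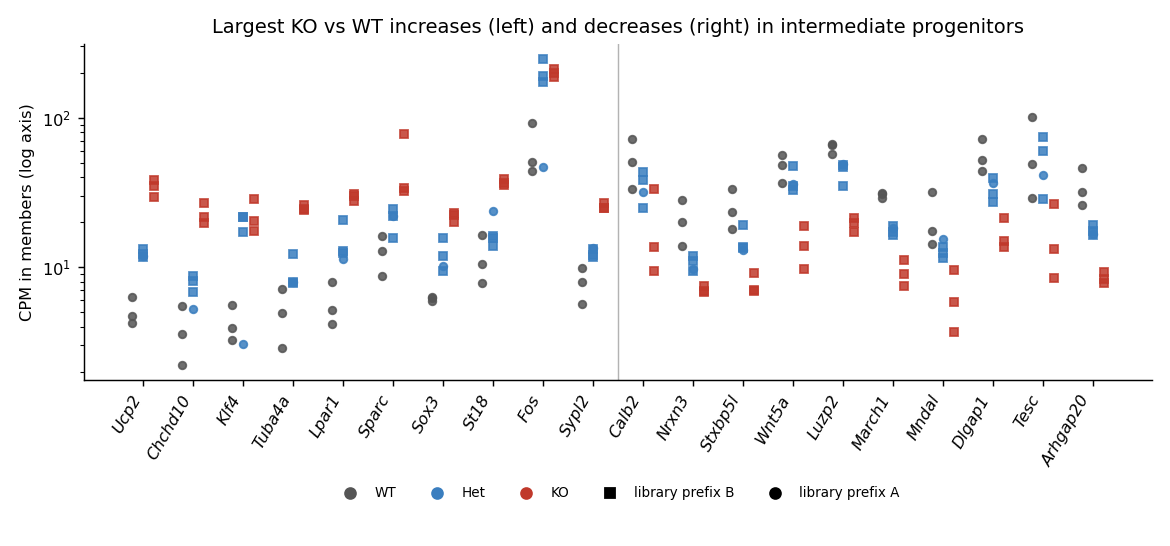
Levels of the 10 genes with the largest increases and the 10 with the largest decreases in KO vs WT among called genes (x axis), in CPM of the members on a log axis (y axis). Points are embryos, circles are prefix A and squares prefix B. The genes were chosen so that no KO embryo overlaps WT. For Fos and Klf4 the Het embryo of prefix A lies with WT.

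By the same limits the largest decrease was that of Arhgap20. Arhgap20 (ENSMUSG00000053199, chr9:51765337-51853856), a GTPase-activating protein, had 25.9, 31.8 and 46.4 CPM in WT, 17.4, 19.1, 16.53 and 16.7 in Het and 7.86, 8.28 and 9.33 in KO. The genotypes did not overlap, and KO was 4.04 times lower than WT (log2 fold change -2.01 ± 0.18 (SE), adjusted p = 8.46e-06). It was also lower in Het vs WT (log2 fold change -0.99 ± 0.16 (SE), adjusted p = 0.0177) and in KO vs Het of prefix B (log2 fold change -1.05 ± 0.14 (SE), adjusted p = 0.00165). Luzp2 had 66.8, 65.8 and 57.0 CPM in WT, 34.9, 46.9, 48.3 and 49.0 in Het and 19.9, 17.1 and 21.4 in KO (log2 fold change -1.69 ± 0.13 (SE), adjusted p = 2.27e-06). March1, a membrane-bound ubiquitin ligase, had 31.5, 30.8 and 29.1 CPM in WT, 16.3, 18.8, 17.1 and 18.2 in Het and 9.03, 7.53 and 11.2 in KO (log2 fold change -1.69 ± 0.13 (SE), adjusted p = 2.27e-06). Dlgap1, a scaffold of the postsynaptic density, had 51.8, 72.2 and 43.7 CPM in WT, 31.0, 27.4, 39.7 and 36.5 in Het and 13.6, 21.3 and 14.9 in KO (log2 fold change -1.79 ± 0.19 (SE), adjusted p = 2.50e-05). Stxbp5l, a binding partner of syntaxin, had 23.2, 18.05 and 33.6 CPM in WT, 13.7, 19.1, 13.5 and 12.9 in Het and 9.16, 6.97 and 7.06 in KO (log2 fold change -1.66 ± 0.22 (SE), adjusted p = 1.57e-04).

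Wnt5a (ENSMUSG00000021994, chr14:28504750-28527448), a secreted Wnt ligand, had 36.4, 48.0 and 56.0 CPM in WT, 32.7, 47.8, 35.0 and 35.9 in Het and 19.0, 9.79 and 13.9 in KO. The KO embryos lay below all others, and Het overlapped WT (KO vs WT log2 fold change -1.68 ± 0.20 (SE), adjusted p = 7.45e-05, KO vs Het of prefix B log2 fold change -1.39 ± 0.19 (SE), adjusted p = 0.00151). Tesc, a calcium-binding protein, varied widely, at 49.4, 29.1 and 100.4 CPM in WT, 60.3, 74.1, 28.7 and 41.4 in Het and 26.4, 8.47 and 13.2 in KO (log2 fold change -1.82 ± 0.43 (SE), adjusted p = 0.00917), and was not called without WT replicate 3. Nrxn3, a presynaptic adhesion molecule, had 20.1, 28.3 and 13.8 CPM in WT, 10.99, 9.42, 11.97 and 9.74 in Het and 7.46, 6.97 and 6.81 in KO (log2 fold change -1.56 ± 0.21 (SE), adjusted p = 2.17e-04). Calb2, which marks Cajal-Retzius cells and some interneurons, had 33.3, 50.9 and 71.8 CPM in WT, 38.0, 25.1, 43.3 and 31.8 in Het and 13.6, 33.1 and 9.46 in KO (log2 fold change -1.55 ± 0.34 (SE), adjusted p = 0.00574). The summed Cajal-Retzius genes were lower in KO as well, as given above. Mndal, a member of a gene family with near-identical copies whose reads may be shared, had 14.3, 17.4 and 31.8 CPM in WT and 9.56, 5.84 and 3.66 in KO (log2 fold change -1.72 ± 0.31 (SE), adjusted p = 0.00159).

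Of the genes that characterize intermediate progenitors, 14 of 27 rose in KO members. Of these 27 measured genes, none of them part of the rule, 14 were higher and 1 (Plcb1) lower in KO vs WT, with a median log2 fold change of 0.36 against -0.01 over all genes tested. Some genes of the list rose more in KO upper-layer neurons than in KO members. For Rnd2 the KO vs WT log2 fold change was 0.12 in the members and 1.16 in these neurons. The values were 0.10 and 0.96 for Sstr2, 0.37 and 1.38 for Mfng, and -0.07 and 0.97 for Neurod1. Each of these differences was called in the test between cell types described below. For the other genes of the list the difference is not given here. Het vs WT called none of the 27, with a median of 0.14. Without Het replicate 4 it called 4 higher, where 3.23% of all genes were called. That fit sets Het of prefix B against WT of prefix A, so genotype and prefix cannot be told apart in it. KO vs Het of prefix B called 5 higher and 2 lower (25.9%, against 2.95% of all genes). Gadd45g (ENSMUSG00000021453, chr13:51846678-51848468), which slows the cell cycle in differentiating progenitors, had 108, 122 and 150.5 CPM in WT, 206, 193, 128 and 173 in Het and 302, 269.6 and 281 in KO. The KO embryos lay above all others (log2 fold change 1.16 ± 0.14 (SE), adjusted p = 8.26e-05). Btg2, an antiproliferative factor of neurogenic progenitors, had 156, 159.9 and 183 CPM in WT, 221, 229, 199 and 201 in Het and 251, 251 and 267 in KO (log2 fold change 0.62 ± 0.08 (SE), adjusted p = 9.71e-05), and its 3 genotypes did not overlap. Coro1c, an actin-binding coronin, had 121, 118 and 121 CPM in WT, 133, 142, 134 and 115 in Het and 178, 175 and 172 in KO (log2 fold change 0.54 ± 0.07 (SE), adjusted p = 1.87e-04). Het replicate 4, of prefix A, lay below every WT embryo and the Het embryos of prefix B above them. With the prefix as covariate the KO vs WT log2 fold change of Coro1c was 0.30. Eomes itself, on which the cells were chosen, had 684, 732 and 804 CPM in WT, 887, 859, 788 and 779 in Het and 916, 847 and 875 in KO.

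Notch genes included the ligand on these cells. Dll1 (ENSMUSG00000014773, chr17:15367354-15376872) had 16.98, 10.7 and 16.0 CPM in WT, 24.4, 19.5, 16.1 and 21.4 in Het and 30.6, 31.6 and 33.9 in KO, 2.22 times higher in KO than in WT (log2 fold change 1.15 ± 0.16 (SE), adjusted p = 2.54e-04) and higher than in Het of prefix B (log2 fold change 0.66 ± 0.13 (SE), adjusted p = 0.0117). Of 27 Notch pathway genes tested, 9 were higher and none lower in KO vs WT, with a median log2 fold change of 0.37. KO vs Het of prefix B called 1 of 26, Dll1, with a median of 0.22, a share (3.85%) near the 2.95% over all genes. The 9 were the receptors Notch1 and Notch2, Dll1, the transcription factors Hes1, Hes6 and Hey1, the glycosyltransferase Mfng, the adaptor Numbl and the ubiquitin ligase Mib1, which activates Notch ligands. Of these, Dll1, Hes6 and Mfng are also on the list of intermediate progenitor genes, and Notch1, Notch2 and Hes1 on that of radial glia genes. Only Hey1, Numbl and Mib1 are on neither. Hes6, an inhibitor of Hes1, had 156, 177 and 165 CPM in WT, 228, 242, 174 and 182 in Het and 247, 247 and 239 in KO (log2 fold change 0.56 ± 0.10 (SE), adjusted p = 0.00208). Numbl had 41.8, 37.1 and 43.2 CPM in WT, 46.3, 47.6, 41.0 and 43.1 in Het and 60.5, 61.4 and 51.0 in KO (log2 fold change 0.50 ± 0.10 (SE), adjusted p = 0.00227). Mib1 had 56.1, 50.4 and 54.0 CPM in WT, 68.5, 55.0, 57.9 and 67.7 in Het and 77.1, 66.6 and 76.6 in KO (log2 fold change 0.46 ± 0.09 (SE), adjusted p = 0.00382), and was not called on thinned cells.

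Of 29 radial glia genes tested, 14 were higher and 1, Mt3, lower in KO vs WT, with a median of 0.61. Vim (ENSMUSG00000026728, chr2:13573927-13582826), an intermediate filament of radial glia, had 255, 392.5 and 463 CPM in WT, 618, 649, 358 and 554 in Het and 941, 802 and 800.4 in KO (log2 fold change 1.20 ± 0.20 (SE), adjusted p = 9.56e-04). Nes, another such filament, had 24.8, 33.2 and 32.1 CPM in WT, 45.3, 48.2, 37.6 and 50.3 in Het and 61.5, 62.3 and 53.2 in KO (log2 fold change 0.97 ± 0.12 (SE), adjusted p = 1.08e-04). These were the 2 genes of the list that KO vs Het of prefix B also called, with log2 fold changes of 0.64 and 0.43 (6.90%, against 2.95% of all genes). On thinned cells Nes was called in neither comparison. Hopx, a marker of outer radial glia, had 9.16, 12.7 and 10.1 CPM in WT, 14.3, 17.99, 17.9 and 14.7 in Het and 18.7, 32.8 and 21.7 in KO (log2 fold change 1.16 ± 0.20 (SE), adjusted p = 0.00147). Tfap2c had 25.02, 31.4 and 31.6 CPM in WT, 42.9, 39.4, 28.9 and 43.8 in Het and 56.6, 49.5 and 45.7 in KO (log2 fold change 0.79 ± 0.14 (SE), adjusted p = 0.00173). In Het vs WT the list had a median of 0.31 and no call. This median was 0.18 without WT replicate 1, 0.085 on thinned cells and 0.48 without WT replicate 2. Without Het replicate 4, 2 genes were called higher, where 3.23% of all genes were called and Het of prefix B stood against WT of prefix A. Calls also appeared without WT replicate 2 or Het replicate 3, and they are not read as a result about the list. On thinned cells, 8 of 28 were called higher in KO vs WT and the median was 0.30.

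Among genes of neuronal differentiation the changes went both ways. Of 42 tested, 5 were higher and 14 lower in KO vs WT, with a median of -0.14. Without WT replicate 1, 8 were lower and the median was -0.09, and without WT replicate 2, 3 were higher. Mapt, the microtubule protein tau, had 326, 338 and 272 CPM in WT, 167, 155, 217 and 254 in Het and 121, 166 and 146 in KO (log2 fold change -1.12 ± 0.16 (SE), adjusted p = 2.74e-04). Zbtb20, a repressor in projection neurons and hippocampus, was among the most abundant of these genes and had 1650.0, 1792 and 2212 CPM in WT, 1479, 1628, 1754 and 1497 in Het and 1296, 1097 and 1177 in KO (log2 fold change -0.66 ± 0.10 (SE), adjusted p = 3.82e-04). The receptor Epha3 had 285, 246 and 248 CPM in WT, 279, 269.7, 289 and 303 in Het and 351, 366 and 383 in KO (log2 fold change 0.50 ± 0.07 (SE), adjusted p = 4.08e-04) and rose together with the transcription factors Bcl11a, Bcl11b, Sox5 and Nfia. KO vs Het of prefix B called 3 of the 42 higher (Bcl11b, Sox5 and Epha3) and 4 lower, among them Zbtb20, Sema3c and Ptn (16.7%, against 2.95% of all genes).

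Migration and guidance genes had 2 of 35 higher and 7 lower in KO vs WT (25.7%, against 17.1% of all genes). Without WT replicate 1 this became 4 higher and 4 lower, without KO replicate 1 it became 3 higher and 4 lower, and with the prefix as covariate 1 was higher and none lower. Cxcr4, the receptor that steers migrating cells along Cxcl12, had 9.16, 14.1 and 19.5 CPM in WT, 13.4, 13.3, 12.7 and 10.9 in Het and 8.51, 6.40 and 5.68 in KO (log2 fold change -1.04 ± 0.24 (SE), adjusted p = 0.00722), and was not called on thinned cells. Sema3c, a secreted semaphorin, had 149, 142 and 116 CPM in WT, 129.7, 106, 139 and 108 in Het and 94.7, 82.8 and 107 in KO (log2 fold change -0.51 ± 0.12 (SE), adjusted p = 0.00794). Cdh11, a cadherin, had 18.8, 25.8 and 16.3 CPM in WT and 4.58, 12.4 and 11.7 in KO (log2 fold change -1.12 ± 0.27 (SE), adjusted p = 0.0104), and was not called without WT replicate 2. Of 21 Wnt pathway genes tested, 2 were higher (Ctnnb1 and Fzd8) and 3 lower (23.8% in all). None was called with the prefix as covariate, and 5 were lower without WT replicate 1. On thinned cells none was higher and 2 of 17 were lower. The effector Tcf7l2 had 21.9, 16.6 and 21.96 CPM in WT, 11.4, 17.1, 21.8 and 21.0 in Het and 10.5, 6.40 and 7.19 in KO (log2 fold change -1.30 ± 0.24 (SE), adjusted p = 0.00186). The feedback inhibitor Axin2 had 15.0, 15.2 and 22.5 CPM in WT, 12.3, 14.6, 15.6 and 14.6 in Het and 10.998, 10.4 and 8.70 in KO (log2 fold change -0.80 ± 0.17 (SE), adjusted p = 0.00562). Dact1 had 20.1, 20.1 and 27.6 CPM in WT and 14.8, 15.2 and 13.5 in KO (log2 fold change -0.64 ± 0.16 (SE), adjusted p = 0.0142). The last was not called without WT replicate 3 or KO replicate 3, or on thinned cells. Beta-catenin (Ctnnb1) had 320.4, 344 and 315 CPM in WT, 441, 397, 388 and 374 in Het and 415, 439.8 and 399.7 in KO (log2 fold change 0.36 ± 0.07 (SE), adjusted p = 0.00379), and it was not called on thinned cells.

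Most DNA replication genes had negative fold changes in KO, and few passed the test. Of 35 DNA replication genes, none was higher and 6 were lower in KO vs WT (Mcm6, Rrm1, Gins1, Prim1, Rfc2 and Rfc3), and 28 of 35 had a negative log2 fold change, with a median of -0.24. The median was -0.11 without WT replicate 1, -0.13 without KO replicate 3 and -0.36 without WT replicate 3, and 3 genes were called without any 1 of these embryos or KO replicate 1. On thinned cells 3 of 30 were called, with a median of -0.41, and Rrm1, Rfc3 and Prim1 were not. In KO vs Het of prefix B 34 of 35 were negative, with a median of -0.26, and 2 were called (Mcm6 and Rrm1, 5.71% against 2.95% of all genes). The helicase subunit Mcm6 had 53.2, 46.5 and 63.9 CPM in WT, 57.0, 62.3, 42.6 and 44.5 in Het and 41.9, 36.7 and 34.4 in KO (log2 fold change -0.53 ± 0.14 (SE), adjusted p = 0.0201). The ribonucleotide reductase subunit Rrm1 had 59.0, 51.9 and 46.1 CPM in WT, 51.2, 49.9, 44.8 and 40.0 in Het and 37.8, 40.9 and 34.4 in KO (log2 fold change -0.48 ± 0.11 (SE), adjusted p = 0.00797). Mcm6 was not called without WT replicate 3, KO replicate 2 or KO replicate 3. With at most 5% mitochondrial UMIs Mcm6, Rrm1 and Prim1 were not called. The clamp loader subunit Rfc3 had 80.4, 72.8 and 71.1 CPM in WT, 72.0, 66.2, 65.9 and 66.5 in Het and 58.8, 61.6 and 59.9 in KO (log2 fold change -0.32 ± 0.07 (SE), adjusted p = 0.00673). The primase Prim1 had 29.7, 23.0 and 23.2 CPM in WT and 14.5, 18.1 and 20.1 in KO (log2 fold change -0.53 ± 0.14 (SE), adjusted p = 0.0162), a call lost without WT replicate 1 or KO replicate 1.

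Of 16 G1 cyclins and CDK inhibitors, 3 were higher and none lower in KO vs WT, with a median of 0.20. On thinned cells 1 of 13 was called, the median was -0.05, and Ccnd2 and Cdk6 were no longer called. With the prefix as covariate 1 of 16 was called, and without KO replicate 2 the median was 0.11. Cdkn1c (ENSMUSG00000037664, chr7:143458339-143461050), the CDK inhibitor p57, had 119, 103 and 99.2 CPM in WT, 107, 111, 97.8 and 129.7 in Het and 136, 185 and 175 in KO, with KO above the other genotypes (log2 fold change 0.62 ± 0.12 (SE), adjusted p = 0.00208, and log2 fold change 0.65 ± 0.10 (SE), adjusted p = 0.00281 within prefix B). Ccnd2, a D-type cyclin, had 497, 447 and 471 CPM in WT, 543, 518, 443 and 508 in Het and 579, 608 and 618 in KO (log2 fold change 0.35 ± 0.08 (SE), adjusted p = 0.00559). Its partner Cdk6 had 160.4, 135 and 136 CPM in WT, 167, 166, 161 and 138 in Het and 169.7, 204 and 202 in KO (log2 fold change 0.41 ± 0.09 (SE), adjusted p = 0.0072).

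Most of the called immediate early genes and several histone genes moved with the prefix. For Btg2, which is on this list too, Het replicate 4 had 201 CPM, above all WT embryos. Its log2 fold change with the prefix as covariate was 0.51 and was not called (edgeR adjusted p = 0.0562). The part of the prefix in its change was not tested further. Of 13 immediate early genes tested, 8 were higher and 1 (Nr4a3) lower in KO vs WT, with a median of 0.69. KO vs Het of prefix B called none of the 13 and had a median of -0.04. The median of the list relative to the WT mean was 0.48, 0.74 and 0.77 in Het replicates 1 to 3 and -0.05 in Het replicate 4, on the log2(CPM + 1) scale. Jund had 512, 556 and 569 CPM in WT, 759, 798, 727 and 595 in Het and 795, 808 and 822 in KO (log2 fold change 0.57 ± 0.09 (SE), adjusted p = 6.25e-04). Dusp1 had 29.7, 29.3 and 22.7 CPM in WT, 43.1, 47.1, 40.7 and 27.1 in Het and 41.9, 48.4 and 56.6 in KO (log2 fold change 0.84 ± 0.18 (SE), adjusted p = 0.00457), and in both the Het embryo of prefix A was the lowest Het embryo. With the prefix as covariate none of the 13 was called. Among the histone genes, Hist1h1e (ENSMUSG00000051627, chr13:23620629-23622558), a linker histone, had 179.6, 143 and 154 CPM in WT, 364, 350.4, 319.9 and 178 in Het and 408, 428 and 389 in KO (log2 fold change 1.36 ± 0.19 (SE), adjusted p = 2.16e-04) and was called in Het vs WT too (log2 fold change 0.93 ± 0.18 (SE), adjusted p = 0.0428), but Het replicate 4 lay in the WT range. Hist1h1c had 46.2, 33.0 and 38.7 CPM in WT, 69.5, 61.5, 64.0 and 40.3 in Het and 63.1, 60.8 and 63.8 in KO (log2 fold change 0.67 ± 0.16 (SE), adjusted p = 0.0101), and was not called without WT replicate 2. Its log2 fold change with the prefix as covariate was -0.02. Of 14 clustered histone genes 4 were higher and 1 lower in KO vs WT (35.7%, against 17.1% of all genes). None of the 14 was called within prefix B, where 2.95% of all genes were. The others named by rule were Hist3h2a, with 150.4, 139 and 125 CPM in WT and 178, 206 and 189.8 in KO (log2 fold change 0.47), and Hist3h2ba, with 497, 474 and 462 CPM in WT and 583, 576 and 566 in KO (log2 fold change 0.27). Hist3h2ba was not called without WT replicate 3, with at most 5% mitochondrial UMIs, with at least 3 UMIs of Eomes or with doublets removed. Histone genes have near-identical copies and most of their RNAs carry no poly(A) tail, so their UMIs are uncertain.

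Of 10 replication-independent histone and H1 variants, 3 were higher and 1 lower in KO vs WT (40.0%, against 17.1% of all genes). H1f0, the linker histone of non-dividing cells, had 344, 331 and 328 CPM in WT, 418, 367, 411 and 394 in Het and 507, 493 and 492 in KO, with the genotypes apart (log2 fold change 0.57 ± 0.06 (SE), adjusted p = 4.73e-05), and was the 1 variant called in KO vs Het of prefix B (log2 fold change 0.32 ± 0.07 (SE), adjusted p = 0.0242). H3f3b, which encodes histone H3.3, had 3438, 3468 and 3837 CPM in WT, 4491, 4582, 4525 and 3740.1 in Het and 5020.1, 4857 and 5105 in KO (log2 fold change 0.48 ± 0.07 (SE), adjusted p = 2.86e-04), with Het replicate 4 nearer to WT. H2afz had 807, 792 and 767 CPM in WT and 923, 1030.0 and 926 in KO (log2 fold change 0.28 ± 0.08 (SE), adjusted p = 0.027). H2afy2 had 199.7, 211 and 194 CPM in WT and 172, 176 and 159 in KO (log2 fold change -0.25 ± 0.06 (SE), adjusted p = 0.013). H2afz lost its call without any 1 of the 3 WT embryos or KO replicate 2, and H2afy2 without WT replicate 2 or KO replicate 3. Neither was called on thinned cells, and H2afy2 was also not called with at most 5% mitochondrial UMIs or without a filter on low counts. Among 14 Hox genes none had enough UMIs in the members to be tested.

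The share of called genes can be read against the 17.1% called over all genes in KO vs WT. It was 55.6% for intermediate progenitor genes, 51.7% for radial glia genes, 45.2% for neuronal differentiation genes, 33.3% for Notch genes and 69.2% for immediate early genes. The lists share genes, so these shares are not separate results. Most of the called Notch genes are also intermediate progenitor or radial glia genes, and Btg2 is on 2 of the lists. For DNA replication genes (17.1%) and G1 cyclins and inhibitors (18.8%) it was near that background. With the prefix as covariate, 5 intermediate progenitor genes, 2 radial glia genes and 2 Notch genes were called higher, and 2 replication genes lower. Of the neuronal differentiation genes, 2 were then higher and 3 lower. That fit called 1.69% of all genes. Without Het replicate 4, Het vs WT called 3.23% of all genes, among them 8 immediate early genes higher, 2 Notch genes higher, and 1 neuronal differentiation gene higher and 6 lower. That fit sets Het of prefix B against WT of prefix A, so genotype and prefix cannot be told apart in it. In KO vs Het of prefix B the call of Dll1 was lost without KO replicate 3. The call of Vim was lost without any 1 KO embryo, with DESeq2 and with doublets removed, and that of Nes without Het replicate 1 or 3 or KO replicate 1 or 2. Gatad2a lost its call there without Het replicate 1 or 3 or KO replicate 1 or 3, Rrm1 without Het replicate 1 or 2 or KO replicate 1 or 3, and Mcm6 without Het replicate 1 or 2 or KO replicate 2 or 3. H1f0 lost it without Het replicate 2 or any 1 KO embryo, and Sema3c without Het replicate 1 or 3 or KO replicate 1 or 2. On thinned cells Dll1, Gatad2a, Rrm1 and Sparc were not called there either. Sema3c lost its call with DESeq2 size factors, with at most 5% mitochondrial UMIs and with at least 3 UMIs of Eomes. H1f0, Nes, Rrm1 and Mcm6 also lost theirs in this comparison with at most 5% mitochondrial UMIs, and Rrm1 with DESeq2.

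**Figure D4:**
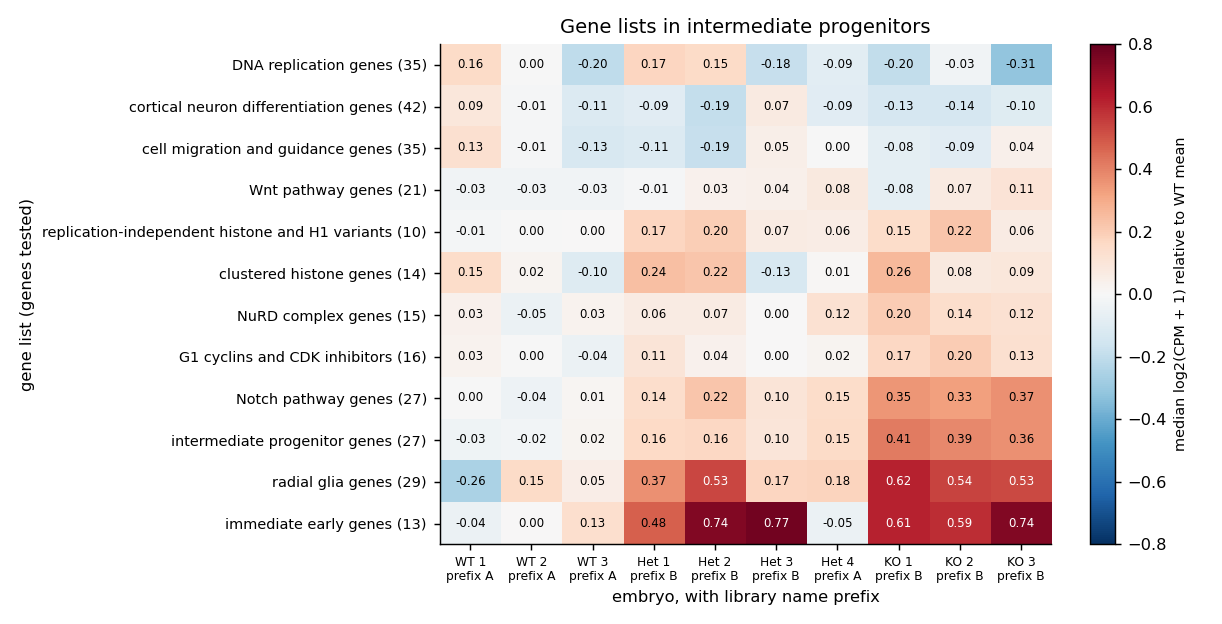
Median of log2(CPM + 1) relative to the WT mean over the tested genes of each list (rows, number of genes in brackets) in the members of each embryo (columns), with values in the cells. The 3 KO embryos are at 0.36 to 0.41 for intermediate progenitor genes, and for immediate early genes Het replicate 4, at -0.05, lies with WT and the other Het embryos with KO.

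In Het vs WT, among called genes with at least 20 CPM in 1 group and no overlap, the 5 largest increases were Card19, Plch2, Tex30, Fam110a and Sh3rf1. Larger called increases outside these limits were Lpar1 (log2 fold change 1.29), Ucp2 (1.25) and Spsb4 (0.77), with both group means below 20 CPM, and Hist1h1e (0.93), where the groups overlapped. Card19, a caspase recruitment domain protein, had 25.02, 18.3 and 26.2 CPM in WT, 36.5, 36.0, 36.9 and 31.2 in Het and 61.4, 65.1 and 60.7 in KO (log2 fold change 0.61 ± 0.11 (SE), adjusted p = 0.0428 in Het vs WT). Plch2, a phospholipase C, had 16.8, 17.02 and 17.5 CPM in WT, 24.1, 24.2, 25.3 and 24.999 in Het and 35.9, 35.4 and 34.1 in KO (log2 fold change 0.53 ± 0.09 (SE), adjusted p = 0.0312), and all genotypes were apart. Tex30 had 21.7, 22.8 and 22.7 CPM in WT, 31.6, 32.8, 31.5 and 31.3 in Het and 34.7, 36.3 and 32.7 in KO (log2 fold change 0.50 ± 0.09 (SE), adjusted p = 0.0288), with no call in KO vs Het of prefix B (log2 fold change 0.11 ± 0.09 (SE), adjusted p = 0.64). Fam110a had 50.7, 48.6 and 55.0 CPM in WT, 76.4, 76.5, 64.2 and 71.2 in Het and 104, 93.6 and 99.5 in KO (log2 fold change 0.49 ± 0.08 (SE), adjusted p = 0.0212). Sh3rf1 had 27.3, 26.5 and 25.2 CPM in WT, 35.5, 39.4, 37.0 and 34.5 in Het and 45.4, 49.1 and 47.6 in KO (log2 fold change 0.47 ± 0.08 (SE), adjusted p = 0.0345). Among the decreases were Hivep3, a zinc finger factor, with 44.9, 45.9 and 37.0 CPM in WT, 27.2, 24.6, 29.6 and 27.1 in Het and 18.3, 18.3 and 21.4 in KO (log2 fold change -0.65 ± 0.10 (SE), adjusted p = 0.017), and Hist1h2ac, with 24.1, 23.4 and 23.2 CPM in WT, 13.2, 15.4, 11.2 and 14.0 in Het and 10.7, 10.7 and 8.96 in KO (log2 fold change -0.81 ± 0.12 (SE), adjusted p = 0.017), besides Arhgap20, March1 and Nrxn3. These genes were chosen without overlap of Het and WT, so the direction of the Het embryo of prefix A was fixed by that choice. Ucp2, outside these limits, had the direction of the other Het embryos in that embryo too. With the prefix as covariate Het vs WT called no gene. Each of the 14 named genes called in Het vs WT lost its call in 1 to 9 of the 10 fits that left out 1 embryo. The loss was in 9 fits for Gatad2b, Card19, Sh3rf1, Lpar1 and Hist1h1e, and Nrxn3 held its call in 2 of the 10. The number of called genes ranged from 3 to 385, the latter without Het replicate 4, where Het is all of prefix B.

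Within prefix B, where genotype is not tied to the prefix, the largest increases by the same limits were Chchd10, Ucp2, Tuba4a, St18 and Sparc, with values given above. The largest decreases were Ndnf, Tesc, Wnt5a, Slc1a2 and Luzp2. Slc1a2, a glutamate transporter, had 94.1, 136 and 182 CPM in WT, 103, 146, 93.1 and 99.1 in Het and 56.3, 40.1 and 49.6 in KO (KO vs Het of prefix B log2 fold change -1.21 ± 0.15 (SE), adjusted p = 6.63e-04), and the KO embryos lay below the others. Ndnf, a gene of Cajal-Retzius cells, had 5.36, 30.6 and 10.4 CPM in WT, 15.0, 23.3, 30.2 and 12.1 in Het and 3.67, 11.9 and 1.39 in KO (KO vs Het of prefix B log2 fold change -2.16 ± 0.43 (SE), adjusted p = 0.0147), was found in 2.103% of the members, and was not called in KO vs WT (log2 fold change -1.63 ± 0.63 (SE), adjusted p = 0.0811). The Cajal-Retzius genes Reln and Cacna2d2 were called lower in this comparison as well. The call of Ndnf was lost without Het replicate 2 or 3 or KO replicate 1, that of Tesc without Het replicate 2 or KO replicate 2 or 3, and that of Sparc without any 1 of the 3 Het embryos. All 3 calls were lost with DESeq2. Ndnf and Sparc also lost theirs with doublets removed, and Ndnf with at least 3 UMIs of Eomes. Sparc further lost it with the replicate block and with at most 5% mitochondrial UMIs. Its log2 fold change without 1 embryo ranged from 0.66 to 1.46.

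The same KO vs WT contrast was compared with that in radial glia and in migrating upper-layer neurons, by a term for the difference between cell types with the embryo as a block. For radial glia 29 of 12144 genes (0.239%) differed, and for upper-layer neurons 265 of 12268 (2.16%). Members minus radial glia, the difference was positive for 24 genes and negative for 5. Members minus upper-layer neurons, it was positive for 99 and negative for 166. The radial glia were 463 cells, 27 to 60 per embryo, against 2804 upper-layer neurons. In their own fits KO vs WT called 248 of 9448 genes in radial glia and 1697 of 11326 in the neurons. The 2 counts therefore do not show to which cell type the change in the members was more alike. At an unadjusted p under 0.05 the counts were 1387 and 1695. The genes of both rules were left out. Against radial glia the smallest adjusted p belonged to Sparc, which averaged 13.2 CPM in WT and 50.5 in KO members, and 454 and 289 in radial glia (difference of 2.52 ± 0.27 (SE) on the log2 scale, adjusted p = 5.65e-04). Cst3, which encodes cystatin C, averaged 351 and 348 CPM in the members and 1538 and 694 in radial glia (difference of 1.13 ± 0.15 (SE) on the log2 scale, adjusted p = 0.00266). The tetraspanin Tspan7 averaged 70.8 and 75.2 CPM in the members and 252 and 122 in radial glia (difference of 1.123 ± 0.15 (SE) on the log2 scale, adjusted p = 0.00266). Cst3 and Tspan7 fell in radial glia and were not called in the members.

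Against upper-layer neurons the smallest adjusted p-values belonged to Tox3, Ndrg1 and Sema5a, which rose in KO members and fell in KO upper-layer neurons. Most of the genes that differed went the other way, with a negative difference of members minus neurons. With the prefix as covariate the KO vs WT log2 fold change in the members was 0.61 for Tox3, 1.51 for Ndrg1 and 0.26 for Sema5a. Tox3, an HMG-box factor, averaged 81.1 CPM in WT and 122 in KO members, and 47.4 and 23.0 in the neurons (difference of 1.64 ± 0.12 (SE) on the log2 scale, adjusted p = 3.03e-06). Ndrg1, a gene of stress response and differentiation, averaged 8.47 and 22.1 CPM in the members and 28.7 and 16.3 in the neurons (difference of 2.19 ± 0.19 (SE) on the log2 scale, adjusted p = 1.47e-05). Sema5a, a transmembrane semaphorin, averaged 106 and 149.7 CPM in the members and 36.6 and 17.2 in the neurons (difference of 1.60 ± 0.15 (SE) on the log2 scale, adjusted p = 3.28e-05). In the members' own values, Tox3 had 82.2, 88.0 and 74.0 CPM in WT, 100.4, 118, 92.0 and 105 in Het and 121, 123 and 124 in KO, Ndrg1 had 7.597, 9.02 and 8.88 CPM in WT, 11.7, 9.85, 12.5 and 12.6 in Het and 22.9, 23.3 and 20.1 in KO and Sema5a had 111, 114 and 92.5 CPM in WT, 135, 108, 119 and 102 in Het and 147, 151 and 153 in KO. The prefix separates WT from KO in both cell types alike.

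**Figure D5:**
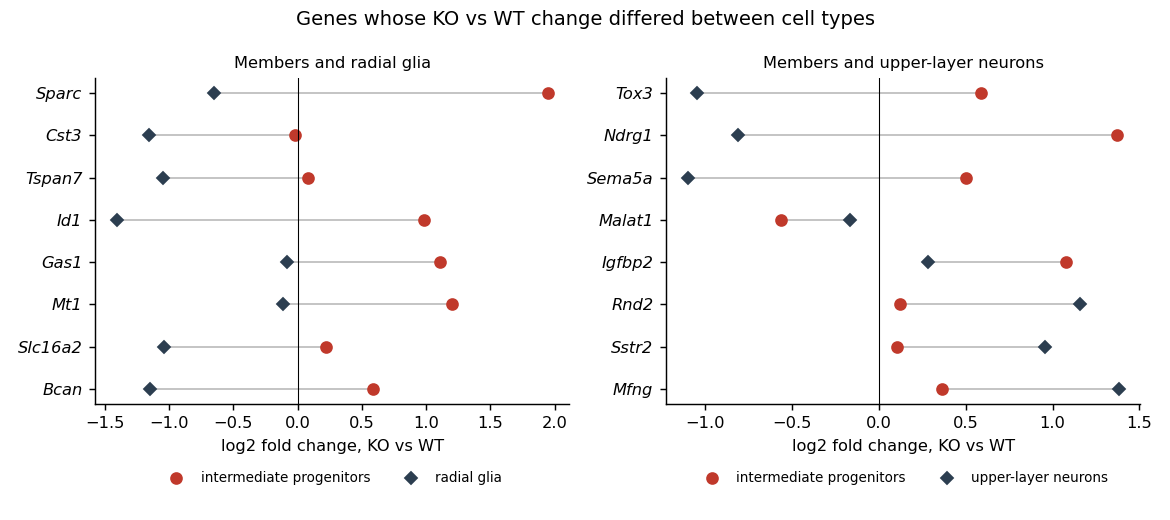
Log2 fold change of KO vs WT (x axis) in intermediate progenitors (circles) and in radial glia or upper-layer neurons (diamonds) for the 8 genes with the smallest adjusted p of the difference in each test. Sparc is at 1.95 in the members and -0.65 in radial glia, and Tox3 is at 0.59 in the members and -1.05 in upper-layer neurons.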

How the data were processed

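Single-cell libraries of the E16.5 cortex, 1 per embryo, were deposited by the authors as tables of raw UMI counts per gene and cell barcode. Per the file headers and the submitters' processing notes, they were made with Cell Ranger 6.0.2 on mm10, while the study's methods name an earlier Cell Ranger version. The authors tested single cells with MAST, whereas here the embryo was the replicate, so p-values measure the spread between embryos.

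Cells below 1000 UMIs or above 10% mitochondrial UMIs were left out, and the rule for intermediate progenitors was applied to each cell. The cells, gene lists and tests were chosen with earlier results of these data known. Doublets were scored per library with Scrublet in scanpy 1.11.5 and removed only in an alternative.

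Counts of the members were summed per embryo and tested with edgeR 4.0.16 (filterByExpr, TMM scaling, quasi-likelihood test, Benjamini-Hochberg adjustment), with DESeq2 1.42.0 as an alternative. WT, Het and KO shared 1 fit, and KO vs Het replicates 1 to 3 had its own. For shares, exact two-sided permutation tests over embryos were run, on cells thinned to 5000 UMIs where stated. Cells below 5000 UMIs were left out of the thinned sets. Intervals cover counting error only. Genes were named by rule: the 10 largest increases and decreases in KO vs WT and 5 each in the other comparisons, among called genes without overlap and with at least 20 CPM in 1 group, up to 4 called genes of each list with the smallest adjusted p in KO vs WT, Gatad2b, Gatad2a and Cdk2ap1, and 3 genes per test of a difference between cell types. Coordinates are from GENCODE vM21 (GRCm38).

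Alternatives were another normalization, no filter on low counts, a replicate block, the prefix as covariate, only the groups compared, other cell filters, thinned cells and leaving out each embryo. One gene that the naming rule picks is not reported here.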

Additional observations from a re-analysis of the deposited data

Results flagged for a closer look

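In a group of 4 embryos, 1 value stood apart from the other 3 by Dixon's 95% criterion for 9 of 84 quantities screened among the Het embryos (7 measures of shares and ratios of cells, and 77 named genes), and chance alone gives such a value in about 1 of 20 groups. Het replicate 4, the only Het embryo of prefix A, stood apart for Cdk2ap1 at 198 CPM, for H3f3b at 3740.1 CPM and for Card19 at 31.2 CPM. Het replicate 2 stood apart for the thinned share of members with Slc1a3 and Hes1 or Hes5 at 8.45%, for Cdh11 at 8.78 CPM and for Stxbp5l at 19.1 CPM. Het replicate 1 stood apart for Rfc3 at 72.0 CPM and for Luzp2 at 34.9 CPM, and Het replicate 3 for Tuba4a at 12.2 CPM.

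The KO vs WT change differed between cell types by the test of the difference itself. Members minus radial glia, the log2 difference was 2.52 for Sparc, 1.13 for Cst3 and 1.123 for Tspan7. Members minus upper-layer neurons, it was 1.64 for Tox3, 2.19 for Ndrg1 and 1.60 for Sema5a. The part of the prefix and of sex in these differences was not tested.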

How the results depend on the processing

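The share of intermediate progenitors kept its direction under each alternative run. For Het vs WT the difference was 1.94 percentage points with at most 5% mitochondrial UMIs, 1.68 with at least 3 UMIs of Eomes and 2.68 with the pallial lineage as denominator, each at the smallest exact permutation p of 0.0286. Het vs WT called 101 genes with DESeq2, 443 without a filter on low counts, 6 with only the 2 groups, 7 with at most 5% mitochondrial UMIs, 15 on thinned cells, 0 with the prefix as covariate (662 at an unadjusted p under 0.05) and 3 to 385 without 1 embryo, the highest without Het replicate 4. Without Het replicate 4, Het is all of prefix B and WT all of prefix A. KO vs WT called 204 genes with the prefix as covariate and 708 on thinned cells. KO vs Het of prefix B called 809 without a filter, 158 on thinned cells and 188 to 259 without 1 embryo. Without a filter, 394 genes differed from radial glia and 593 from upper-layer neurons. The cause was not tested.

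With the prefix as covariate the KO vs WT log2 fold changes of Cdk2ap1 (-0.0095), Hist1h1c (-0.0206), Klf4 (-0.32) and Fos (-0.43) changed sign. On unthinned cells the replicating share differed by 0.349 points in KO vs WT and 1.75 in Het vs WT, the radial glia side by 3.51 in KO vs Het, and the radial glia share by 0.0232 in KO vs WT and 0.0521 in KO vs Het. Without 1 embryo, the radial glia side ranged from -0.842 to 0.975 (Het vs WT) and -1.18 to 1.55 (KO vs Het), the neuron side from -4.52 to 2.31 and -0.388 to 9.86, and the radial glia share from -0.141 to 0.0245 (Het vs WT), -0.202 to 0.0145 (KO vs WT) and -0.155 to 0.0512 (KO vs Het). Of the named genes, 62 of 74 calls in KO vs WT held without each embryo and 34 with the prefix as covariate, against 24 of 42 calls in KO vs Het and 0 of 14 in Het vs WT without each embryo. Genes called in neither fit changed sign 3 times in KO vs WT, 18 in KO vs Het and 29 in Het vs WT.

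Equal replicate numbers did not pair the embryos, since deviations of same-numbered embryos correlated from -0.330 to 0.273. With the replicate block, 2127 genes were called in KO vs WT, 371 in KO vs Het of prefix B and 312 in Het vs WT. No WT or KO embryo shares the number of Het replicate 4, so the block takes up that embryo. Het vs WT then sets Het of prefix B against WT of prefix A, as in the fit without Het replicate 4 (385 genes). Genotype and prefix cannot be told apart in these 312 calls.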
